A study of Mus musculus with 7 samples.

Results

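MicroRNA (miRNA) genes that lie in lamin-associated domains (LADs) of mouse embryonic fibroblasts were examined. LADs are long stretches of chromatin that touch the nuclear lamina, a protein mesh that lines the inside of the nucleus. A gene was a member if the RefSeq gene table of GRCm38.p6 gave it the biotype miRNA and a symbol starting with Mir, and if its midpoint fell in a domain of the LAD list that the authors deposited. Of 1180 such miRNA genes, 234 (19.8%) were members, where 31.9% of all 49943 placed genes of the table had their midpoint in a LAD. The members were thus chosen by the deposited domain positions, which are themselves measured, so this share and all values that follow from it are descriptions, and none was tested.

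The study used CUT&RUN, in which a nuclease tethered to an antibody releases the DNA around a target, in iMEF, which the labels describe as a mouse embryonic fibroblast line and of which independently derived lines came from a single mouse colony. For Lamin B1, whole cells were bound to Concanavalin A beads, with 500000 cells per reaction. It had 7 libraries: 2 for Lamin B1, 2 for IgG, 2 for H3K9me2 (antibodies ab1220 and 39041) and 1 for H3K14ac, with no treatment named. The name of the LAD list calls it wild type and merged, and it is a single pooled result, so no domain has a value per library, a read depth or a replicate error. Fibroblast identity could not be checked against marker genes, because the list holds positions and no expression. Domain lengths fell on a grid of 2.5 kb (100% within 125 bp of a multiple), so a gene nearer to a border than that cannot be placed on either side with confidence.

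A miRNA is cut from a hairpin in a longer transcript, often the intron of a host gene or a long noncoding RNA, and neighbouring hairpins can share 1 transcript. The mature strand guides Argonaute proteins to messenger RNAs that pair with its seed, bases 2 to 8 from the 5′ end, and messages so bound are repressed. Genes in LADs are mostly silent or weakly transcribed, and many of them are active in other cell types.

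Mature sequences of RefSeq (GRCm38.p6) matched 148 of the 234 members and 865 of the 946 miRNA genes outside. The sequences below are those of members known from certain tissues and of widely expressed members with a close relative outside LADs, with the seed in capitals. The genes for miR-137, miR-153 and miR-205 were members.
mmu-miR-137-3p: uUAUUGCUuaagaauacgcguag
mmu-miR-153-3p: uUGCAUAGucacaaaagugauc
mmu-miR-205-5p: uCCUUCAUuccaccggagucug
The next pairs and triplet show the same seed from both sides of the border. Mir204 was a member and Mir211 was not, Mir99a was a member and Mir100 was not, and Mir29c was a member and Mir29a was not.
mmu-miR-204-5p: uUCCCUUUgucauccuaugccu
mmu-miR-211-5p: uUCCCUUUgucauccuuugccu
mmu-miR-99a-5p: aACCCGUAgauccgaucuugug
mmu-miR-100-5p: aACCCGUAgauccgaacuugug
mmu-miR-29c-3p: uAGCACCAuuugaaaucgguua
mmu-miR-29a-3p: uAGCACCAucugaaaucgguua
mmu-miR-29b-3p: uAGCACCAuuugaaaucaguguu
Each of the 3 pairs differed at 1 of 22 bases, outside the seed. The sequence of miR-29b-3p comes from 2 genes, Mir29b-2 inside and Mir29b-1 outside.

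The share of miRNA genes in LADs was below that of protein-coding genes (23.8% of 21887) and of lncRNA genes (28.0% of 12727). It was also below that of snoRNA genes (46.3% of 1340) and snRNA genes (40.4% of 1004), and above that of tRNA genes (10.3% of 408). Members were unevenly spread. The 3 LADs with the most miRNA genes held 103 members, or 44.0%, and the fullest alone held 30.3%. Without those 3 LADs the share was 12.2% (131 of 1077), and with each cluster counted once it was 13.9% (126 of 905). Per Mb, LADs of the autosomes and X held 0.183 miRNA genes, or 0.103 without the 3 fullest, and the intervals between LADs held 0.718.

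**Figure D1:**
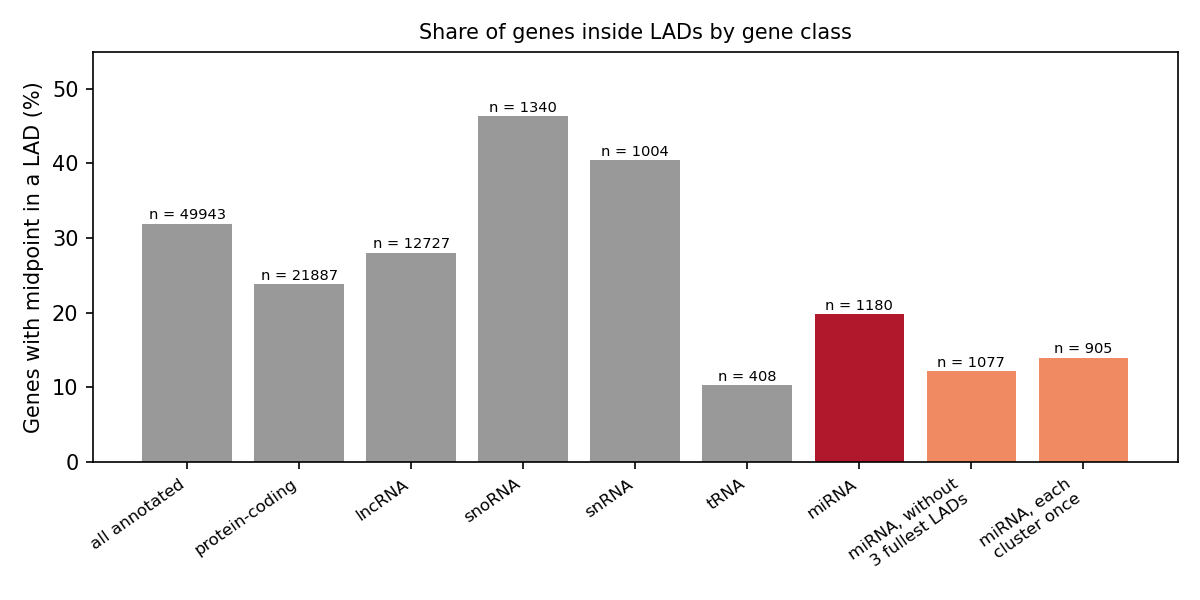
Share of genes with their midpoint in a LAD (%, bars from 0) for all genes, 6 gene classes and miRNA genes under the other 2 counts, with the number of genes above each bar. The miRNA bar stands at 19.8%, and it is 12.2% without the 3 fullest LADs and 13.9% with each cluster counted once.

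Of the 1437 LADs, 102 (7.10%) held a miRNA gene: 81 had 1, 11 had 2 and 10 had 3 or more. LADs with a miRNA gene had a median length of 1.66 Mb and the others 0.387 Mb, but a longer LAD has more room for a gene of any class. Counted by gene, the median LAD length was 985 kb over members, or 1650 kb without the 3 fullest LADs. Over protein-coding genes in LADs it was 1785 kb. The shortest one with a miRNA gene was 50.0 kb and the longest 8.66 Mb. Clusters were defined as chains of miRNA genes with neighbouring midpoints at most 10 kb apart. Of the members, 121 (51.7%) belonged to a chain, against 247 (26.1%) of the genes outside. Without the 3 fullest LADs it was 19.1% of the members, and without the fullest alone it was 30.7%. The share outside kept its own large chains, such as the 16 genes from Mir770 to Mir3071. With each chain or lone gene counted once, 13 of 126 inside (10.3%) and 80 of 779 outside (10.3%) were chains. The 80 include the chain that crosses a border, whose first gene lay outside. There were 13 chains fully inside, 79 fully outside and 1 that crossed a border.

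The largest chain lay within Sfmbt2, which encodes a Polycomb group protein and is imprinted in the mouse placenta. A LAD at chr2:10427379-11317375 (mm10, 890.0 kb) contained 71 miRNA genes, from Mir466m to Mir669h, in 51.6 kb, or 5.80% of its length. They belonged to 4 families by symbol: 29 Mir669, 23 Mir466, 14 Mir467 and 5 Mir297 genes. The families alternated along the chain. The order Mir467, Mir466, Mir669 occurred 11 times, and neighbouring copies of Mir669a, of which there were 12, were a median of 2.46 kb apart (2.41 to 6.38 kb). All 71 genes were spanned by Sfmbt2. The gene itself lies at chr2:10370440-10595253, and both of its annotated starts lay outside the LAD, 56.9 and 54.9 kb before the border, whereas the first miRNA gene was 39.3 kb past it. Over the whole genome, 29 of 30 Mir669, 24 of 28 Mir466, 15 of 17 Mir467 and 6 of 6 Mir297 genes were members. How reads that match several copies of a repeat were placed is not given in the sources used here.

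The second group was an X-linked cluster whose miRNAs are known mainly from testis. The LAD (chrX:65586623-66881618, 1295 kb) held 19 miRNA genes from Mir743 to Mir465, all on the minus strand, within 62.4 kb. No gene of the table spanned them, and the nearest border was 42.5 kb from Mir465 and 105 kb from Mir743. The hairpins of the 19 members were AU-rich, with a median GC content of 37.0% (31.0% to 46.2%). The 36 arms with a listed sequence had 32 distinct sequences and 26 distinct seeds. The 5′ arms listed for 5 of the 6 Mir465 genes shared 1 seed. The other arms printed, 3′ arms except that of miR-470-5p, had other seeds. Of the 5′ arms, miR-743a-5p and miR-871-5p shared the seed AUUCAGA, found in 2 members and in 0 genes outside.
mmu-miR-465a-5p: uAUUUAGAauggcacugauguga
mmu-miR-465d-5p: uAUUUAGAaugguacugauguga
mmu-miR-465b-5p: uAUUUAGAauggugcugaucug
mmu-miR-465c-5p: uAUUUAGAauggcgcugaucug
mmu-miR-743a-3p: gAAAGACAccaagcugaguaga
mmu-miR-743b-3p: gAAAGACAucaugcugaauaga
mmu-miR-880-3p: uACUCCAUccucucugaguaga
mmu-miR-881-3p: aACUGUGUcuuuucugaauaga
mmu-miR-871-3p: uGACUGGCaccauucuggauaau
mmu-miR-470-5p: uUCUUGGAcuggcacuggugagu
The miR-465a-5p and miR-465d-5p arms differed at 1 of 23 bases, miR-465b-5p and miR-465c-5p at 1 of 22, and miR-743a-3p and miR-743b-3p at 3 of 22, with 0 differences in the seed each time. The seed AUUUAGA was carried by 5 members and by 0 genes outside, and AAAGACA by 2 and 0.

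Of other X-linked miRNA genes, Mir201, Mir547 and Mir509 lay 26.0, 25.7 and 3.97 kb outside a border. The other X-linked clusters of the lists were all outside. These were the 6 genes of the Mir106a to Mir363 group, relatives of the growth-promoting Mir17 cluster, the 7 genes around Mir322 and Mir450, and the 5 genes of the Mir500 group. Their median distances to a border were 995, 687 and 250.2 kb.

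The Mir344 family filled the third LAD, at chr7:61369933-62354929 (985 kb). All 13 Mir344 genes of the table were there, on the minus strand, from Mir344d-1 to Mir344i. They were far looser than the 2 groups above, spread over 402 kb or 40.8% of the LAD with a median spacing of 40.7 kb. Within 10 kb of each other they formed a chain of 4, Mir344d-3 to Mir344h-2, and a pair, Mir344d-1 and Mir344d-2. A lncRNA, A230057D06Rik, spanned 7 of them on the same strand, and its annotated start was also in the LAD. The 1 protein-coding gene with its midpoint in this LAD was Ndn, an imprinted gene of the Prader-Willi region. The 3′ arms did not share 1 seed, as the following sequences show.
mmu-miR-344-3p: uGAUCUAGccaaagccugacugu
mmu-miR-344b-3p: cAUUUAGCcaaagccugacugu
mmu-miR-344d-3p: gAUAUAACcacugccagacuga
mmu-miR-344e-3p: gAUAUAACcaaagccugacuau
mmu-miR-410-3p: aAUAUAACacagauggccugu
The last line is from Mir410 on chromosome 12, which has the seed of the Mir344d and Mir344e arms. That seed, AUAUAAC, was found in 5 members and in 0 genes outside. The 5′ arms of 7 members of the family shared GUCAGGC, also with 0 genes outside.

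On chromosome 12 a border cut through the miRNA genes of the imprinted Dlk1-Dio3 region, whose miRNAs are made from the maternal chromosome and are abundant in brain and placenta. From the end of the preceding LAD (109379897) to the end of the next (chr12:109742397-109929896, 187.5 kb) there were 60 miRNA genes, of which 54 lay in the gap and 6 in the LAD. The chain from Mir379 to Mir3072 had 39 genes in 38.9 kb, 33 outside and 6 inside. The members were Mir541, Mir409, Mir412, Mir369, Mir410 and Mir3072, at the distal end of the chain. Mir541 was 0.056 kb inside and Mir3072 5.52 kb inside. The last genes outside were Mir377 at 1.85 kb, Mir496a at 3.24 kb and Mir154 at 3.93 kb. Mir541, Mir409, Mir412, Mir369, Mir410 and Mir377 were thus all closer to the border than the 2.5 kb grid. The host lncRNA Mirg (chr12:109734981-109749458) holds 10 of these genes, 4 outside and 6 inside, and its annotated start was 7.42 kb outside. The sequences below run across the border, from the last gene outside to members inside.
mmu-miR-377-3p: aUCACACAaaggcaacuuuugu
mmu-miR-541-5p: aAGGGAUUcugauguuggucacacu
mmu-miR-409-3p: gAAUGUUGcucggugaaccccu
mmu-miR-369-3p: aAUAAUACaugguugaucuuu

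The fifth LAD (chrX:146973865-147551362, 577.5 kb) held 5 miRNA genes, Mir764, Mir1912, Mir1264, Mir1298 and Mir448, all in Htr2c and on its strand. Htr2c encodes the serotonin receptor 2C, a receptor of neurons. The miRNA genes were 28.4, 35.6, 36.8, 91.1 and 184.4 kb inside the border. The annotated start of Htr2c lay 11.4 kb outside it.
mmu-miR-1264-3p: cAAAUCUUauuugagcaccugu
mmu-miR-1298-5p: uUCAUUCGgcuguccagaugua
mmu-miR-448-3p: uUGCAUAUguaggaugucccau

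**Figure D2:**
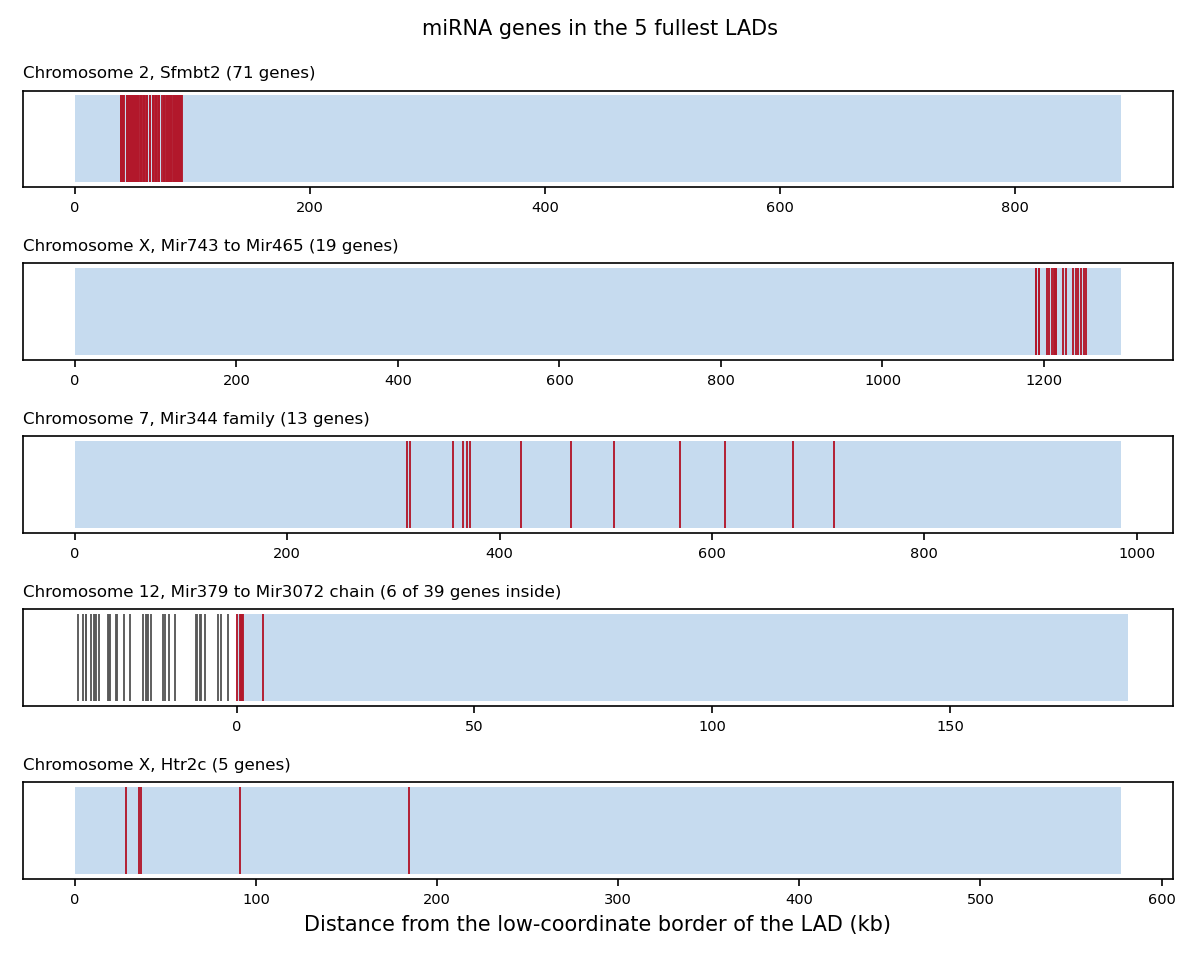
Maps of the 5 LADs with the most miRNA genes, to scale, each with its own axis in kb from the low-coordinate border. Blue marks the LAD, red lines the miRNA genes inside and grey lines the 33 genes of the chromosome 12 chain outside, and a reader sees 71 genes packed near 1 border on chromosome 2 and 13 genes spread over chromosome 7.

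Several miRNAs are encoded by more than 1 gene, and in some of these families the copies lay on different sides of a border. Of 96 families with 2 or more genes by number in the symbol, 9 were fully inside, 66 fully outside and 21 on both sides. The 9 were Mir344 with 13 genes, Mir297 and Mir465 with 6 each, Mir216 with 3, and Mir683, Mir743, Mir873, Mir883 and Mir7094 with 2 each. The 21 were Mir669, Mir466, Mir467, Mir29, Mir30, Mir181, Mir124, Mir135, Mir128, Mir125, Mir21, Mir195, Mir378, Mir5124, Mir3471, Mir1906, Mir680, Mir8099, Mir7, Mir99 and the let-7 genes (Mirlet7). A shared number in the symbol does not always mean a shared sequence. Among the 148 members with a listed mature sequence, which include 0 of the 71 Sfmbt2 genes and not Mir124a-2, Mir30b, Mir30d or Mir383, exactly the same sequence came from an inside and an outside gene in 10 cases. They were let-7c-5p, miR-125b-5p, miR-128-3p, miR-135a-5p, miR-181a-5p, miR-181b-5p, miR-29b-3p, miR-1906, miR-680 and miR-8099. By gene, 45 of 148 members with a listed sequence (30.4%) had a seed that also occurred outside, and 43 of 116 (37.1%) did without the 3 fullest LADs. In the other direction, 83 of 865 outside genes (9.60%) had a seed that also occurred inside. The outside set is the larger one, so the shares are not on an equal footing.

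The let-7, Mir99 and Mir125 genes form matching trios at several loci. On chromosome 16, Mir99a (chr16:77598936-77599000), Mirlet7c-1 and Mir125b-2 were members, at 515, 515 and 562 kb from the border of a 1137-kb LAD without a protein-coding gene midpoint. The matching trio on chromosome 9, Mir100, Mirlet7a-2 and Mir125b-1 in the lncRNA Mir100hg, lay 1230, 1235 and 1281 kb outside. The third trio, Mir99b, Mirlet7e and Mir125a in Spaca6 on chromosome 17, was also outside, 83.8, 83.6 and 83.2 kb from a border. Of the 11 let-7 genes, whose product is abundant in differentiated cells, Mirlet7c-1 was the 1 member. The identical product of Mirlet7c-1 and Mirlet7c-2, and that of Mir125b-1 and Mir125b-2, were as follows.
mmu-let-7c-5p: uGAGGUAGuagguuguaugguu
mmu-miR-125b-5p: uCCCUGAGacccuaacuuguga

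The Mir29 genes, which are known to repress collagen messages, divided by locus. Mir29b-2 and Mir29c on chromosome 1, in the lncRNA A330023F24Rik, were 367 kb inside, whereas Mir29a and Mir29b-1 on chromosome 6 were 947 and 946 kb outside. Of the Mir181 genes, known from lymphoid cells, Mir181a-1 and Mir181b-1 on chromosome 1 were 295.6 and 295.4 kb inside. The pair with the same 5′ arms on chromosome 2, in Nr6a1, lay 425 and 423 kb outside, and Mir181c and Mir181d on chromosome 8 lay 1121 kb outside.
mmu-miR-181a-5p: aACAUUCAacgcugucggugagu
mmu-miR-181b-5p: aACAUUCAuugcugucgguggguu
Of 7 Mir30 genes, Mir30b and Mir30d on chromosome 15 were members, at 46.5 and 50.3 kb from the border, and the 5 others were outside.

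Lists of miRNAs named for the tissue in which they are best known were counted next. Over 8 lists, 23 of 154 genes (14.9%) were members, where all miRNA genes gave 19.8%, or 13.9% with each cluster counted once. With 2 to 60 genes a list, nothing particular to a tissue is read from the counts. None of the 14 genes of pluripotent cells (Mir290 to Mir295, Mir302 and Mir367) was a member, and none of 11 muscle genes (among them Mir1a-1, Mir133b, Mir206 and Mir499). The 5 genes from Mir302b to Mir367, in Larp7, lay 82.4 to 82.9 kb outside, and the median over the 14 genes was 522 kb. Of 60 genes of fibroblasts and wide expression, 7 were members, all in the Mir29, Mir30, Mir99, let-7 and Mir125 families above. Mir21a, Mir143, Mir145a, Mir199a-1, Mir199a-2, Mir214, Mir221 and Mir222, which fibroblasts are known to express, lay outside at 1140 kb or more. The median over the 53 genes of this list outside was 624.6 kb, and others lay near a border, such as Mirlet7i at 12.5 kb and Mirlet7g at 57.6 kb. The Mir17 to Mir92-1 cluster, which promotes proliferation, lay outside by 25.3 to 26.0 kb.

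Of 29 neuronal miRNA genes, 7 were members (24.1%). They were Mir124a-2, Mir128-2, Mir135a-2, Mir137, Mir153, Mir383 and Mir384. All miRNA genes gave 19.8%, or 13.9% with each cluster counted once and 12.2% without the 3 fullest LADs, and no difference was tested. Mir124a-2, a copy of the gene for a major miRNA of neurons, was 1338 kb inside, and the other two copies, Mir124a-1 and Mir124a-3, were 3623 and 793 kb outside. Mir137 (chr3:118433857-118433929) was 566 kb from the border of a 1787-kb LAD, and no gene of the table spanned it. Its hairpin is printed with the mature arms in capitals.
Mir137 hairpin: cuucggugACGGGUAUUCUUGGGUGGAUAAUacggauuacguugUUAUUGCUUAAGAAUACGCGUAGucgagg
Mir128-2, in Arpp21, was 782 kb inside and Mir128-1, in R3hdm1, 252 kb outside. Mir135a-2 was 801 kb inside and Mir135a-1 32.9 kb outside. Within each pair, the arm printed below was identical.
mmu-miR-128-3p: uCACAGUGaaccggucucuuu
mmu-miR-135a-5p: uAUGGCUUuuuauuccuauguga
Mir9 genes, which regulate neural progenitors, were all outside, and Mir9-2 was the nearest at 1.73 kb, within the 2.5 kb grid.

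Of 11 genes of liver, pancreas and gut, 4 were members (36.4%), all of them in 1 LAD. The share of all miRNA genes was 19.8%, or 13.9% with each cluster counted once. The pancreatic group Mir216a, Mir216b, Mir216c and Mir217 on chromosome 11 was inside at 349 to 367 kb, while Mir122, Mir192, Mir194-1, Mir194-2, Mir215 and Mir375 were outside. Of 11 epithelial genes, Mir205 (608 kb inside) and Mir184 (237 kb inside) were members, and the Mir200 and Mir183 groups were not. Mir204, in Trpm3, was 140 kb inside, whereas its relative Mir211, in the related channel gene Trpm1, was 207 kb outside. Of 16 blood genes, the Mir181 pair was inside. Mir223, Mir146 and Mir155, known from myeloid cells, innate immunity and activated lymphocytes, lay 3.66, 3.89 and 12.3 kb outside a border and were the nearest of the 14 blood genes outside, whose median was 1301 kb. Mir142, Mir146b, Mir150 and Mir144 lay 1481, 1656, 1869 and 2885 kb outside.

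**Figure D3:**
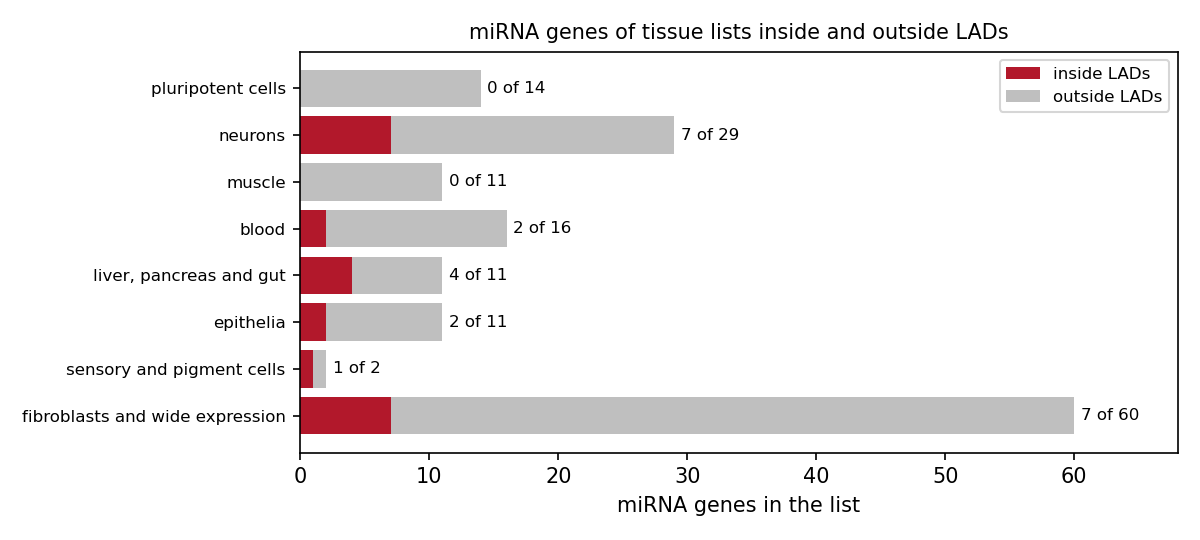
Number of miRNA genes of 8 tissue lists inside (red) and outside (grey) LADs, with the count beside each bar. Pluripotent and muscle genes show 0 of 14 and 0 of 11 inside, and neuronal genes 7 of 29.

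A host was any gene of the table that is not a miRNA gene and spans the whole miRNA gene. Of the members, 161 (68.8%) had a host and 125 (53.4%) had a protein-coding one, against 757 (80.0%) and 669 (70.7%) of the genes outside. Of the 125, 71 were the genes in Sfmbt2, and without that LAD 33.1% of members had a protein-coding host and 55.2% any host. With each cluster counted once, 59.5% of members and 84.3% of outside genes had a host, and 40.5% and 76.5% had a protein-coding one. Where strand was known for both, 61 of 71 members (85.9%) and 524 of 599 outside genes (87.5%) were on the strand of a host.

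The protein-coding hosts of members were longer at the median than those of outside genes only, but ranged down to Kctd12 with 6.06 kb. The length of all protein-coding genes in LADs was not set beside them. The 46 protein-coding hosts had a median length of 323 kb (quartiles 159 and 685 kb), and the 603 that hosted outside genes only had 34.2 kb (15.9 and 85.8 kb). Over 500 kb were 17 of the 46 and 11 of the 603. The 5 longest were Lrp1b (2058 kb, Mir6336), Csmd1 (1643 kb, Mir3106), Robo2 (1555 kb, Mir691), Cntn5 (1271 kb, Mir6237) and Lingo2 (1255 kb). Robo2 is an axon guidance receptor, and Cntn5 and Lingo2 are neuronal surface proteins. Lingo2 held 3 members, Mir876, Mir873a and Mir873b, which were 1657 to 1680 kb from the border. Tenm4, a teneurin, held Mir708 and Mir6394. Calcr, the calcitonin receptor, held Mir653 and Mir489, and Egfem1 held Mir551b and Mir21b. The immunoglobulin heavy chain locus, which the table lists as the single entry Igh, spanned Mir7094-1, Mir7094-2 and Mir6388. Of the noncoding hosts, Mir217hg and Gm40818 spanned 2 members each of the pancreatic group. In all, 12 hosts held 2 or more members.

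**Figure D4:**
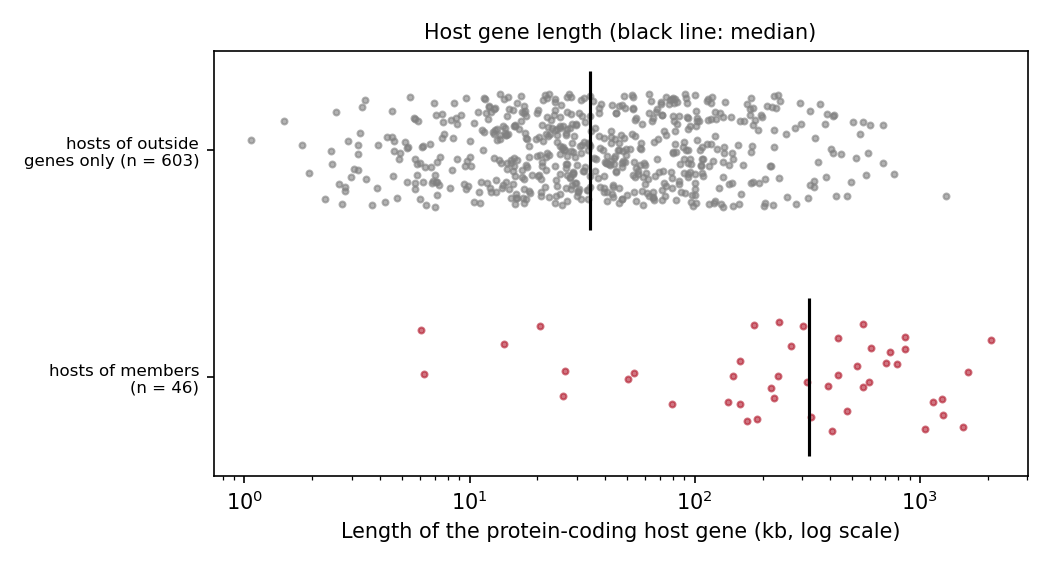
Length of protein-coding host genes (kb, log axis), 1 point per gene, for 46 hosts of members and 603 hosts of outside genes only, with black lines at the medians of 323 and 34.2 kb. The points are spread vertically to avoid overlap, and the 2 groups overlap in range.

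Where the annotated transcription start of a host was listed, it was usually in a LAD too. Among 53 hosts of members with a listed start, 45 had every start inside, 2 (Fgf13 and Nebl) had some and 6 had none. Those 6 were Sfmbt2, Htr2c, Mirg, Grm8, Gm4675 and Gm32113, and they held 85 members, most of them the Sfmbt2 genes. The starts of Grm8, a glutamate receptor gene, lay 76.9 to 85.6 kb outside, while its miRNA gene Mir592 was 113 kb inside. The 53 include noncoding hosts. Of the 38 protein-coding hosts of members with a listed start, 33 had every start inside, 2 some and 3 none. Of 486 protein-coding hosts of outside genes only, 483 had no start in a LAD.

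The median distance of members to a border was 97.5 kb (quartiles 56.7 and 373 kb). Without the 3 fullest LADs the median was 307 kb, and for protein-coding genes in LADs it was 308 kb. For miRNA genes outside it was 741.6 kb. Within 50 kb of a border were 45 members (19.2%), or 16.8% without the 3 fullest LADs, and 81 outside genes (8.56%). The deepest members were Mir6411 (3616 kb), Mir186 in Zranb2 (2349 kb), Mir691 in Robo2 (1990 kb), Mir6373 (1878 kb) and Mir297-1 (1842 kb). Just inside were Mir541 (0.056 kb), Mir6379 (0.236 kb), Mir6354 (0.434 kb), Mir409 (0.800 kb) and Mir412 (0.931 kb). Just outside were Mir692-3 (0.988 kb), Mir5099 (1.11 kb), Mir6335 (1.40 kb), Mir9-2 (1.73 kb) and Mir377 (1.85 kb). Mir6335 shares its host B3galt1 with the member Mir7224, which was 104 kb inside.

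**Figure D5:**
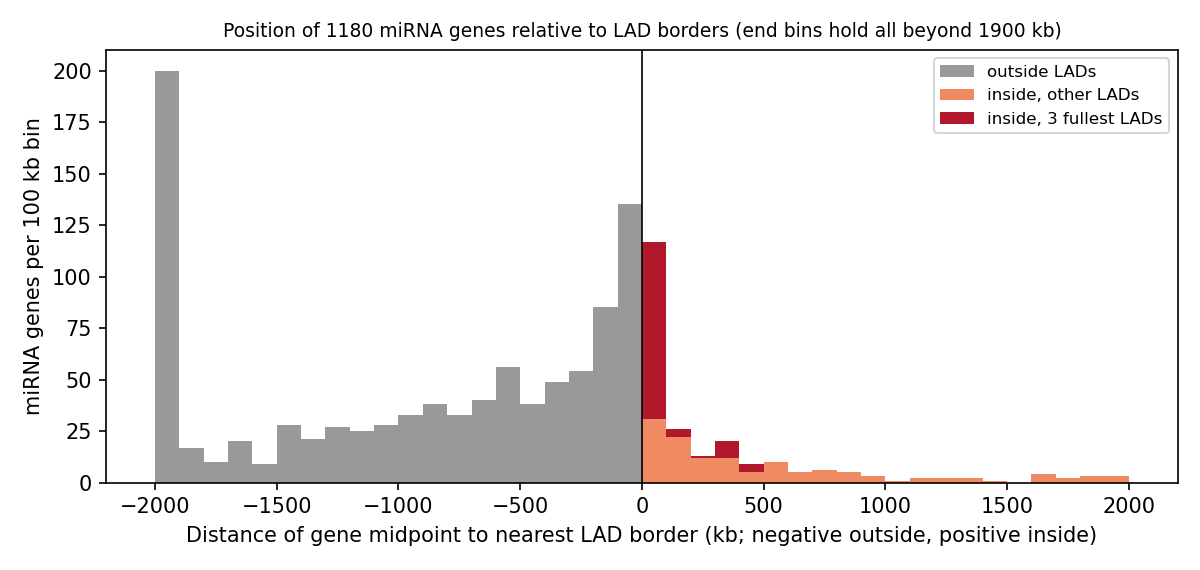
Number of the 1180 miRNA genes per 100 kb bin of distance (kb) to the nearest LAD border, negative outside and positive inside, with the 3 fullest LADs in dark red. The end bins hold all genes beyond 1900 kb, and the first bin inside is mostly made of the 3 fullest LADs.

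Listed hairpins of members had less GC than those outside, with 0 of the 71 Sfmbt2 genes among them. The median was 45.2% (quartiles 40.0% and 50.0%) over 143 members with a listed hairpin and 52.9% (46.0% and 58.8%) over 820 genes outside, and it was 46.1% in 111 members without the 3 fullest LADs, which removes the 32 hairpins of the X-linked and Mir344 groups. The quartile ranges overlapped. By chromosome, the share of miRNA genes inside LADs was highest on chromosome 2 (53.1% of 145) and X (34.4% of 90). Without the 3 fullest LADs these became 8.11% and 16.9%, and chromosome 3 was then highest with 28.3% of 46. Chromosome 17 had 0 of 39, and chromosome 11, with 87 miRNA genes, had 5 inside.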

How the data were processed

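The authors deposited 1 list of domains in BED format, whose values are start and end positions in base pairs. Its score column held 0 in all 1437 lines. Bowtie2 and the build mm10 are named in the submitters' processing notes. The domain caller, threshold and use of IgG are not given in the sources used here, and read depth is unknown. That the list rests on the Lamin B1 libraries was taken from its name. Positions were counted from 1 and set against RefSeq gene positions of GRCm38.p6, the assembly that mm10 names. Gene midpoints, chains (10 kb), hosts, seeds (bases 2 to 8) and hairpin GC were computed with Python 3.11.15, pandas 2.3.3 and numpy 2.4.6, and the functions were tested on simulated positions. Annotated starts came from RefSeq promoter windows. Members and lists were chosen with earlier results of these data known. Named were chains of 4 or more members, the 5 fullest LADs, the 5 deepest and nearest genes, hosts with 2 or more members, the 5 longest hosts, families on both sides and tissue lists from general knowledge. Other genes that are named were chosen after their values were seen. No test was run, since the list is 1 pooled result and genes are not replicates.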

Additional observations from a re-analysis of the deposited data

How the results depend on the processing

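Of 37 alternatives over 8 results, 19 stayed within the 95% Wilson interval of a share or within 1.5 times of another value, and 18 moved further. The GC difference, the 1 result with a sign, kept it in its 3 alternatives. The share of miRNA genes in LADs (19.8%) was 23.5% with gaps of at most 250 kb joined and 13.9% with each cluster counted once. It was 12.2% without the 3 fullest LADs and 14.7% without the fullest, and these and all other counts without the fullest LADs were chosen after seeing the data. The median distance to a border (97.5 kb) was 383.7 kb with gaps joined and 307 kb without the 3 fullest LADs. The median length of the LAD over members (985 kb) was 2947 kb with gaps joined and 1650.0 kb without the 3 fullest. The share of members in a chain (51.7%) was 44.0% at 3 kb, 58.1% at 50 kb and 30.7% without the fullest LAD. Without the 3 fullest it was 19.1%, below the 26.1% outside, from which no large chain was taken out. The share with a host (68.8%) was 53.4% for protein-coding hosts, 59.5% with each cluster counted once, 62.6% without the 3 fullest LADs and 55.2% without the fullest. The share with a seed also found outside (30.4%) was 48.6% with bases 2 to 7 and 23.0% with the first listed arm. Wherever each cluster was counted once, for the share in LADs and for hosts, its first gene represented it. The chromosome 12 chain that crosses a border thus counted as outside. Beyond what each alternative counts, the cause of these shifts was not tested. No paired analysis was possible because 1 merged list carries no value per library, which also kept any Lamin B1 library from being left out. The intervals cover counting of genes and not replicate error. They treat genes as separate draws, although 103 members lay in 3 LADs, so they are too narrow. The counts of 19 and 18 hold for that rule only.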

Other observations

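The seed AGCAGCA, known from the Mir15, Mir16 and Mir195 genes that restrain the cell cycle, was found in 4 members and 7 genes outside. The members were Mir195b, Mir6342, Mir6353 and Mir6419, on chromosomes 1 and 2, at 284, 1331, 411 and 51.3 kb from a border. Mir15a and Mir195a were among those outside. The capitals mark the seed.
mmu-miR-195b: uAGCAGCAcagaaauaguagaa
mmu-miR-6342: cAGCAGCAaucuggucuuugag
mmu-miR-6353: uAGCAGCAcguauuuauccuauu
mmu-miR-6419: cAGCAGCAaucugacacaugga
mmu-miR-195a-5p: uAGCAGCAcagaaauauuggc
mmu-miR-15a-5p: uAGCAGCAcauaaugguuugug

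The table has 48 further miRNA genes whose symbols do not start with Mir, which the rule leaves out. Of these, 8 had their midpoint in a LAD.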
